A study of Mus musculus with 12 samples.

Results

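The cytochrome P450 family 4 (CYP4) enzymes of mouse liver are described here through 10 genes, taken from the 21705 rows of a gene expression table by their symbols: Cyp4a10, Cyp4a12a, Cyp4a12b, Cyp4a14, Cyp4a31, Cyp4a32, Cyp4f13, Cyp4f14, Cyp4f15 and Cyp4v3. The choice rests on symbols and not on a threshold of the values, but it was made with earlier results of these data known. CYP4 enzymes sit in the membrane of the endoplasmic reticulum and add a hydroxyl group to the far (omega) end of a fatty acid, using electrons delivered by cytochrome P450 oxidoreductase and cytochrome b5. Alcohol and aldehyde dehydrogenases then turn the product into a dicarboxylic acid, which is shortened in peroxisomes. In rodent liver, Cyp4a10 and Cyp4a14 are classical targets of the nuclear receptor PPARalpha and are induced by fasting, Cyp4a12a is a male-predominant gene whose enzyme makes 20-HETE from arachidonic acid, and several Cyp4f enzymes inactivate leukotriene B4.

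Polyadenylated RNA was sequenced from the livers of 12 female C57BL/6J mice aged 10 to 12 weeks, 1 library per mouse, with single reads of 100 bases. The mice received saline (6 mice) or LNA29 (6 mice) through the tail vein. LNA29 is a pair of locked nucleic acid oligonucleotides, given at 20 mg/kg each, which block miR-29a and miR-29b/c. Livers were taken on day 7, after a fast of 18 h in both groups, and no liver given a control oligonucleotide was part of these 12, so that inhibition of miR-29 and the administration of an oligonucleotide cannot be told apart. miR-29 itself is not a row of the table. In whole liver, fewer cells of a type and less RNA per cell cannot be told apart.

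The sequences of the inhibited miRNAs are shown first because they define what LNA29 acts on. They are written 5′ to 3′ from RefSeq on GRCm38.p6, with the seed (bases 2 to 8) in capitals. miR-29a-3p lies at chr6:31062673-31062694 on the minus strand. miR-29b-3p is encoded at chr6:31063025-31063047 on the minus strand and again at chr1:195037091-195037113 on the plus strand. miR-29c-3p lies at chr1:195037600-195037621 on the plus strand.
miR-29a-3p: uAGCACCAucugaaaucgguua
miR-29b-3p: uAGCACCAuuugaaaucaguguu
miR-29c-3p: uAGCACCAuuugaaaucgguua
All 3 share one seed, whose complement in an mRNA reads TGGTGCT. On the sense strand of the GENCODE M21 transcripts, this 7-base word was found in the 3′ UTR of 0 of the 9 CYP4 genes that have an annotated 3′ UTR, against 2715 of 20922 genes (13%). The annotated Cyp4a32 transcript holds no 3′ UTR, and the coding sequence of Cyp4a14 has 1 match. A match is a run of letters, not a measured binding site.

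The Cyp4a genes form a cluster on chromosome 4 between positions 115299046 and 115621602 (GRCm38), and their likeness decides how far their reads can be separated. The first 90 coding bases of the 6 genes, all in exon 1, are given below in lower case, with capitals at each base that differs from Cyp4a10. The positions are chr4:115518322-115518411 for Cyp4a10, chr4:115600975-115601064 for Cyp4a32, chr4:115563717-115563806 for Cyp4a31, chr4:115299128-115299217 for Cyp4a12a and chr4:115411683-115411772 for Cyp4a12b, all on the plus strand, and chr4:115496024-115496113 on the minus strand for Cyp4a14.
Cyp4a10: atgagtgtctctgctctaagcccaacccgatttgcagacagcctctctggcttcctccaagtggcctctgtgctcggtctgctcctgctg
Cyp4a32: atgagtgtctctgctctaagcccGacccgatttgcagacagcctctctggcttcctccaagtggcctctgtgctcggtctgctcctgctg
Cyp4a31: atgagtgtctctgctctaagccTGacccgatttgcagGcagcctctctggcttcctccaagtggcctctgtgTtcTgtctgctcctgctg
Cyp4a12a: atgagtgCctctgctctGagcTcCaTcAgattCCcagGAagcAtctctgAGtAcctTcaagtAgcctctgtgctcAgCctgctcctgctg
Cyp4a12b: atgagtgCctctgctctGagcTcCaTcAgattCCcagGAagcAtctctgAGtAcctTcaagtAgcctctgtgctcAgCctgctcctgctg
Cyp4a14: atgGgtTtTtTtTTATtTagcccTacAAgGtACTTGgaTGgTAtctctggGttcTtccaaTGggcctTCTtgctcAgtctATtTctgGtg
In this stretch Cyp4a32 differs from Cyp4a10 at 1 base and Cyp4a31 at 5, whereas Cyp4a14 differs at 34. Cyp4a12a and Cyp4a12b each differ from Cyp4a10 at the same 18 bases. Over the whole coding sequence Cyp4a10 was 97.2% identical to Cyp4a32, 96.6% to Cyp4a31 and 77.6% to Cyp4a14, and Cyp4a12a was 98.5% identical to Cyp4a12b. Of all 100-base windows in the transcript, 35.8% of those of Cyp4a12a, 20.1% of Cyp4a32, 12.7% of Cyp4a10 and 8.2% of Cyp4a31 also occurred in another gene. Those of Cyp4a14 and of the Cyp4f genes occurred in no other gene. The split of reads within the group Cyp4a10, Cyp4a31 and Cyp4a32, and between Cyp4a12a and Cyp4a12b, is therefore uncertain, and in 11 of 12 livers Cyp4a10 had a fractional read number.

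Levels are the deposited values, in which each liver's upper quartile, over genes with reads, is set to 1000 and a gene without reads is listed at 1. The reads assigned to genes ranged from 8217212 to 19062437 in saline livers and from 7696081 to 15079236 in LNA29 livers, so that 1 read was worth 9.80 to 24.4 units. One library stood apart: in saline liver 49 albumin took 35.7% of the reads, where the other livers had 43.6% to 46.9%, and the CYP4 genes took 1.68%, where the others had 0.297% to 1.3%. The summed hepatocyte markers ranged from 33220000 to 1.12e+08 in saline and from 80370000 to 95610000 in LNA29 livers, and those of stellate cells and fibroblasts from 16370 to 25950 and from 18020 to 26400. Endothelial markers summed to 5211 to 6220 and 4585 to 6342, Kupffer cell markers to 7484 to 11340 and 6571 to 15740, and bile duct markers to 605 to 907 and 441 to 1189. Lymphocyte and blood markers summed to 2047 to 5653 and 2594 to 16900, and S100a8 of that list had no reads in most livers. Their part in the results was not tested.

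The question was whether CYP4 mRNA differed between livers with and without inhibition of miR-29. Cyp4f14 was lower in LNA29 livers by 0.74 on the log2 scale, with mean values of 4248 ± 743.9 and 2529 ± 366 (SD, n = 6). Cyp4a12a was at the limit of detection, with 3 reads in all saline and 16.75 in all LNA29 livers. It had reads in 6 of 6 LNA29 and 2 of 6 saline livers, but 4 of 6 LNA29 livers were at or under 3 reads. These counts describe the gene and do not test a difference. The abundant Cyp4a10 and Cyp4a14 were not distinguishable between the groups, but varied about 5-fold among LNA29 livers (about 3-fold without LNA29 liver 48) and about 2-fold among saline livers. All 10 genes passed the filter of a mean of at least 10, Cyp4a12a and Cyp4a12b only through the LNA29 livers. None of the 10 had an adjusted p under 0.05 in limma over the 12486 genes tested, of which 20 (0.16%) did. Of the 8 genes above the floor of 3 reads, 1, Cyp4f14, had an unadjusted limma p under 0.05, beside 7.91% of all genes, and an exact permutation p under 0.05, beside 8.5%. Cyp4a12a and Cyp4a12b are left out of these counts, since the filter let them in by their LNA29 values. The groups overlapped in each of the 10 genes, where 0.985% of all genes had groups that did not. Of the 8 genes with more than a few reads, 4 had a higher and 4 a lower mean in LNA29 livers. Their median log2 fold change was -0.06, beside -0.09 over all tested genes.

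**Figure D1:**
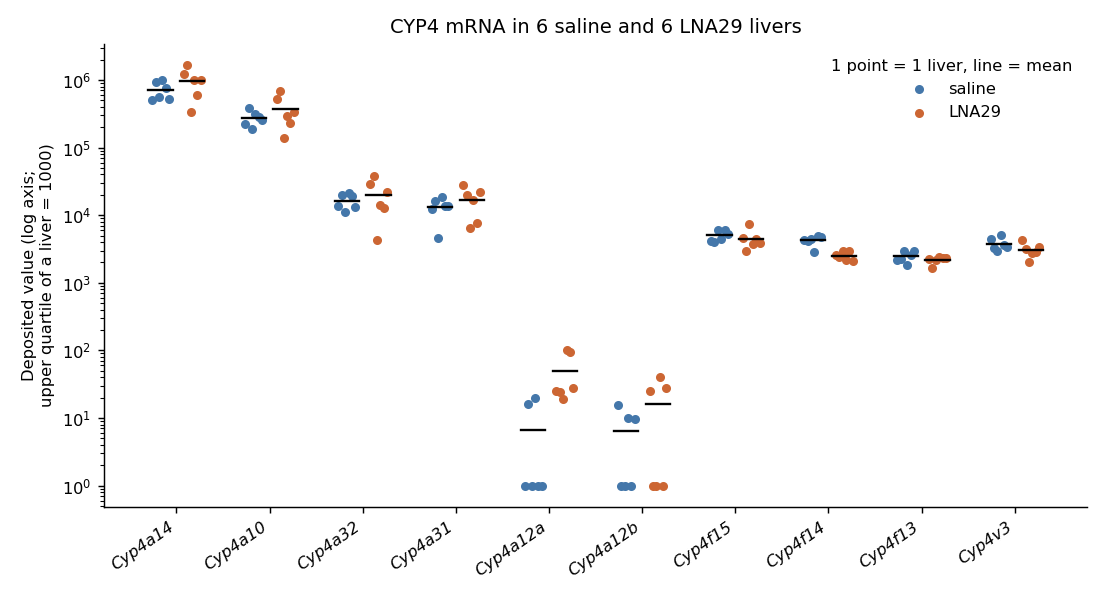
Deposited values (log axis, upper quartile of each liver at 1000) of the 10 CYP4 genes in 6 saline and 6 LNA29 livers. Each point is 1 liver and each line a group mean. Cyp4a14 and Cyp4a10 stood far above the others, Cyp4a12a and Cyp4a12b sat near 0 reads (listed at 1), and the LNA29 points of Cyp4f14 lay below all saline points except that of saline liver 49.

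Per kilobase of transcript, Cyp4a14 had the highest level in saline livers at 287000 ± 86770, followed by Cyp4a10 at 130300 ± 32360 (SD, n = 6). Their ranges did not overlap, and Cyp4a14 was above Cyp4a10 in every liver. The near copies Cyp4a32 (10730 ± 2780) and Cyp4a31 (5269 ± 1908) came next, with ranges that overlapped. Then followed Cyp4f15 at 2318 ± 424.8, Cyp4f14 at 1913 ± 334.9, Cyp4f13 at 1404 ± 259.1 and Cyp4v3 at 999 ± 217. Neighbours from Cyp4a32 to Cyp4f13 in this order overlapped in range, as did Cyp4f13 and Cyp4v3. Cyp4a12a and Cyp4a12b came last at 2.74 and 2.67. In LNA29 livers the order was the same except that Cyp4f14 (1139 ± 164.8) came below Cyp4f13 (1247 ± 154.8), Cyp4f14 being the higher of the pair in 3 of 6 LNA29 and 6 of 6 saline livers.

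Cyp4a14, a fatty acid omega-hydroxylase, had values of 501878, 923429, 564456, 1009060, 767772 and 531235 in saline livers 43, 45, 47, 49, 51 and 53. In LNA29 livers 44, 46, 48, 50, 52 and 54 they were 1217025, 1665854, 341906, 1015732, 599170 and 998370. The highest 3 livers and the lowest were LNA29 livers, and the saline livers lay between them. The group means were 716300 ± 216600 and 973000 ± 464800 (SD, n = 6), a log2 fold change of 0.33 (SE 0.41, 95% interval -0.54 to 1.20). The groups were not distinguishable (two-sided exact permutation test, p = 0.396). As a fold, the interval ran from 0.687 to 2.30.

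Cyp4a10, an omega-hydroxylase of medium-chain fatty acids such as lauric acid, had values of 221200, 379377, 190891, 317188, 287229 and 252630 in the saline livers in the same order. The LNA29 livers had 518125, 699020, 137346, 298360, 233254 and 338850. The same LNA29 livers, 46 and 44, were at the top and LNA29 liver 48 was at the bottom. The means were 274800 ± 68250 and 370800 ± 204500 (SD, n = 6), and the log2 fold change was 0.28 (SE 0.35, exact permutation p = 0.468). The ratio of the highest to the lowest liver was 5.09 among LNA29 and 1.99 among saline livers for Cyp4a10, and 4.87 and 2.01 for Cyp4a14. Without LNA29 liver 48, the ratio among LNA29 livers was 3.0 for Cyp4a10 and 2.78 for Cyp4a14. The SD of the log2 values was larger in LNA29 livers for 6 of the 8 CYP4 genes above the floor, and for 4 of 8 without LNA29 liver 48, beside 52.5% of all genes tested. This difference of spread was not tested.

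The 2 near copies of Cyp4a10 followed the same livers. Cyp4a32 ranged from 11001 to 21423 with a median of 16502 in saline livers, and from 4310 to 37368 with a median of 18139 in LNA29 livers. LNA29 livers 46 and 44 were again highest and LNA29 liver 48 lowest, so that the saline range lay inside the LNA29 range. The log2 fold change of Cyp4a32 was 0.04 (SE 0.38, exact permutation p = 0.946), and its sign turned when any of 6 single livers was left out. Cyp4a31 ranged from 4617 to 18598 (median 13703) in saline and from 6401 to 28264 (median 18575) in LNA29 livers, with a log2 fold change of 0.28 (SE 0.37, exact permutation p = 0.565). Its lowest value was that of saline liver 47, and its 3 highest were those of LNA29 livers 44, 54 and 46. Summed over Cyp4a10, Cyp4a31 and Cyp4a32, which removes the uncertain split of reads, the means were 304400 ± 75970 and 407800 ± 222600 (SD, n = 6).

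After the group means were subtracted, Cyp4a10 and Cyp4a14 varied together over the 12 livers with a Pearson r of 0.94 (permutation p = 1e-04, adjusted over 7 pairs 7e-04) and a Spearman rho of 0.88 (permutation p = 0.00143, adjusted 0.0046). Without LNA29 livers 48 and 46, which were farthest from the median of Cyp4a10, r was 0.85. Within the groups r was 0.85 in saline and 0.97 in LNA29 livers. Cyp4a31 varied with Cyp4a10 (r = 0.81, adjusted permutation p = 0.00906, rho = 0.87 with adjusted p = 0.0046, and r = 0.86 without the same 2 livers), with which it shares part of its reads. It also varied with Cyp4a14 (r = 0.78, adjusted permutation p = 0.0101, rho = 0.85 with adjusted p = 0.0046, and r = 0.74 without these livers), with which it shares no 100-base window. The relation of Cyp4a14 and Cyp4a31 lost its call without LNA29 liver 48 (r = 0.68, adjusted permutation p = 0.0584). The ratio of Cyp4a14 to Cyp4a10 within a liver was 2.60 ± 0.41 in saline and 2.69 ± 0.41 in LNA29 livers (SD, n = 6), although their levels ranged about 5-fold (exact permutation p = 0.697, one of 6 ratios chosen after the values were seen).

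**Figure D2:**
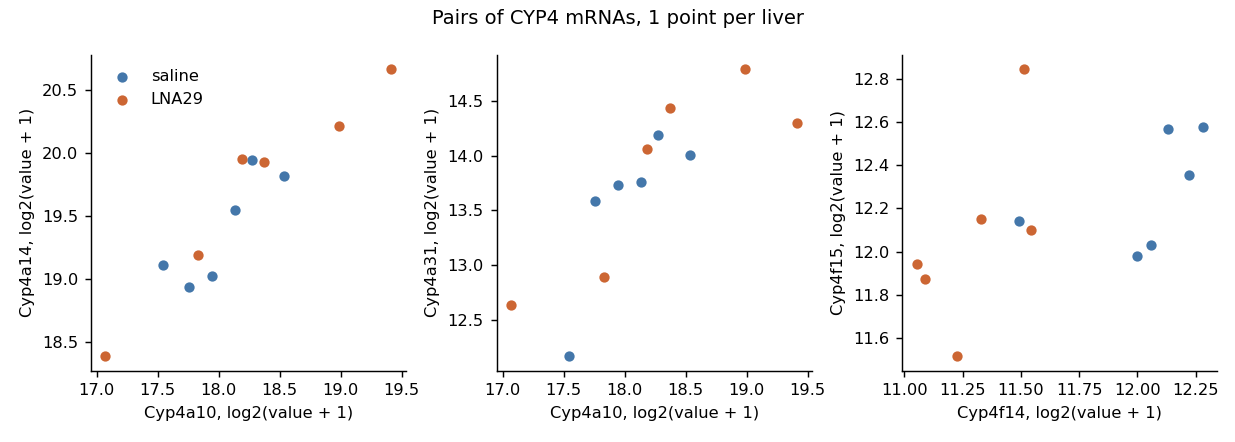
log2(value + 1) of pairs of CYP4 mRNAs, 1 point per liver, for Cyp4a14 against Cyp4a10, Cyp4a31 against Cyp4a10 and Cyp4f15 against Cyp4f14. The Cyp4a pairs lie along rising lines in both groups, and in the Cyp4f pair the LNA29 livers are shifted to lower Cyp4f14.

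Cyp4a12a was at the limit of detection in these females. It had 0, 1, 0, 2, 0 and 0 reads in saline livers and 2, 1, 1, 5.75, 5 and 2 reads in LNA29 livers, the fraction arising from reads split with a copy. Every LNA29 liver had at least 1 read and 4 of 6 saline livers had none, but only LNA29 livers 50 and 52 were above the floor of 3 reads. With each saline liver set at that floor and the LNA29 livers left at their values, the ratio of means was 1.24, which rests on LNA29 livers 50 and 52. No p is given, since the gene passed the filter only through the group in which it was higher. The groups overlapped, saline liver 49 with 2 reads lying at 20.0 and LNA29 liver 48 with 1 read at 18.9. Cyp4a12b had 3 reads in all saline and 6.25 in all LNA29 livers, at most 2.25 in a liver, so that no fold can be given. Counts of this size cover counting error only, and reads can move between Cyp4a12a and Cyp4a12b.

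Cyp4f14, which hydroxylates leukotriene B4 and the side chain of vitamin E, lies at chr17:32905070-32917100 on the minus strand (GRCm38). Its values were 4266, 4095, 4491, 2880, 4980 and 4775 in saline livers 43, 45, 47, 49, 51 and 53. In LNA29 livers 44, 46, 48, 50, 52 and 54 they were 2575, 2390, 2925, 2179, 2981 and 2123. All 6 LNA29 livers were below the saline median of 4378, and the groups overlapped only because saline liver 49 lay below LNA29 livers 48 and 52. These values rest on 256 to 493 reads per saline liver and 98 to 206 per LNA29 liver, all whole. The log2 fold change was -0.74 (SE 0.15, 95% interval -1.06 to -0.42), a ratio of means of 0.595. The two-sided exact permutation test gave p = 0.00649, where the smallest possible is 0.00216. In limma, Cyp4f14 was 24th of the 12486 genes by p with an adjusted p of 0.0682, which misses the threshold. That adjusted p was 0.0263 to 0.195 when single livers were left out, under 0.05 without saline liver 49 and without LNA29 liver 48. It was 0.251 with the livers shifted to a common median, 0.204 with trimmed-mean scaling and 0.00468 with array weights. Since the overlap rested on saline liver 49 alone, the library that stood apart, the groups of Cyp4f14 cannot overlap without it. This is therefore no separate evidence of a difference. With that liver left out, 192 of 12458 genes (1.54%) had groups that did not overlap, a comparison chosen after the values were seen.

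Cyp4f15, another leukotriene B4 hydroxylase of the same cluster on chromosome 17, ranged from 4032 to 6101 in saline livers with a median of 4882. In LNA29 livers it ranged from 2927 to 7358 with a median of 4164. The highest and the lowest of the 12 livers were LNA29 livers 48 and 46. The log2 fold change was -0.20 (SE 0.19, exact permutation p = 0.353). Cyp4f13 ranged from 1840 to 2965 (median 2438) in saline and from 1659 to 2411 (median 2288) in LNA29 livers, a log2 fold change of -0.16 (SE 0.15, exact permutation p = 0.284). All 6 LNA29 livers lay below its saline median, but inside or just under the saline range. Measured within each liver, Cyp4f13 was 0.582 ± 0.065 of Cyp4f14 in saline and 0.880 ± 0.180 in LNA29 livers (SD, n = 6), with ranges of 0.502 to 0.660 and 0.694 to 1.11 that did not overlap (exact permutation p = 0.00217, adjusted over 6 ratios 0.0130). Cyp4f15 relative to Cyp4f14 was 1.20 ± 0.23 and 1.76 ± 0.44 (exact permutation p = 0.0173, adjusted 0.0520). These ratios do not depend on the scaling of a liver, but they were chosen after the values were seen. Cyp4f14 is the denominator of each, so they restate its lower values and are no separate test of its difference. How often the ratios of other gene pairs separate the groups was not counted. Among the 3 Cyp4f genes r was 0.53 for Cyp4f13 with Cyp4f14, 0.50 for Cyp4f13 with Cyp4f15 and 0.54 for Cyp4f14 with Cyp4f15 (adjusted permutation p = 0.123, 0.122 and 0.104). With the livers shifted to a common median these were 0.75, 0.68 and 0.70 (adjusted permutation p = 0.0171, 0.0171 and 0.0143), beside 0.93 for Cyp4a10 with Cyp4a14, 0.74 for Cyp4a10 with Cyp4a31 and 0.71 for Cyp4a14 with Cyp4a31 on that scale. Without saline liver 49, r of Cyp4f13 with Cyp4f14 was 0.18 as deposited. The rho values of the 3 pairs as deposited were 0.41, 0.56 and 0.70 (adjusted permutation p = 0.255, 0.107 and 0.0320), and r was 0.12, 0.27 and 0.72 without the 2 livers farthest from the median of the first gene.

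**Figure D3:**
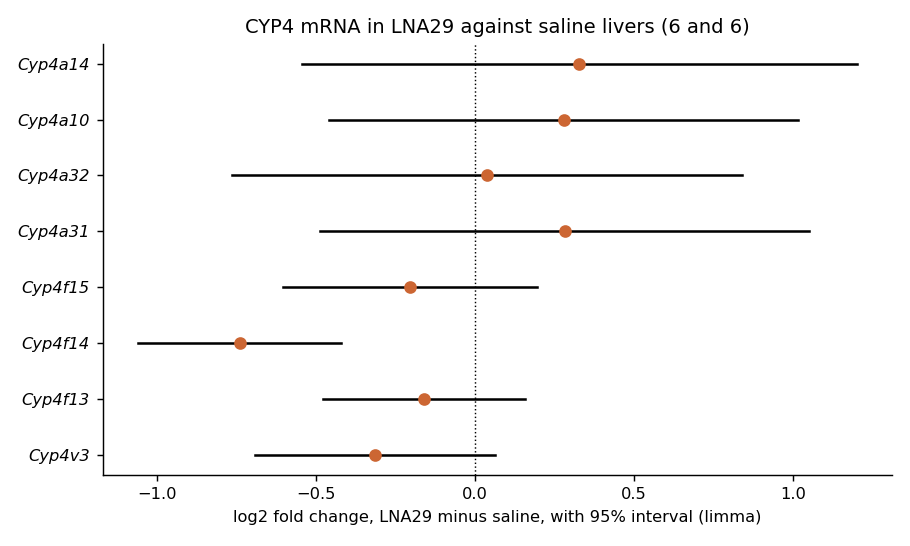
log2 fold change (LNA29 minus saline, on log2 of value + 1) of the 8 CYP4 genes with more than a few reads, with the 95% interval from limma (6 livers per group). Only the interval of Cyp4f14, from -1.06 to -0.42, lay wholly to one side of 0.

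Cyp4v3, the mouse counterpart of the human CYP4V2 gene that is mutated in Bietti crystalline dystrophy, lies apart from both clusters at chr8:45304944-45333216 on the minus strand. It ranged from 2947 to 5116 (median 3530) in saline and from 2038 to 4338 (median 3010) in LNA29 livers. The log2 fold change was -0.31 (SE 0.18), 5 of 6 LNA29 livers being below the saline median (exact permutation p = 0.123). Without LNA29 liver 44 it was -0.42 (exact permutation p = 0.0346, limma adjusted p = 0.488). Of its 100-base windows, 5.8% also occurred in another annotated gene.

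Some livers stood at opposite ends for different CYP4 genes. LNA29 liver 48 was the lowest of 12 for Cyp4a14, Cyp4a10, Cyp4a32 and Cyp4v3 and the highest for Cyp4f15, but it was 9th for Cyp4f13 and 7th for Cyp4f14. LNA29 liver 46 was the highest for Cyp4a14, Cyp4a10 and Cyp4a32 and the lowest for Cyp4f13 and Cyp4f15, and 10th for Cyp4f14. In saline liver 47 Cyp4a31 was the lowest of 12 and Cyp4a10 and Cyp4a32 were the 11th, while Cyp4f13 was the highest. These ranks were read after the values were seen and were not tested.

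**Figure D4:**
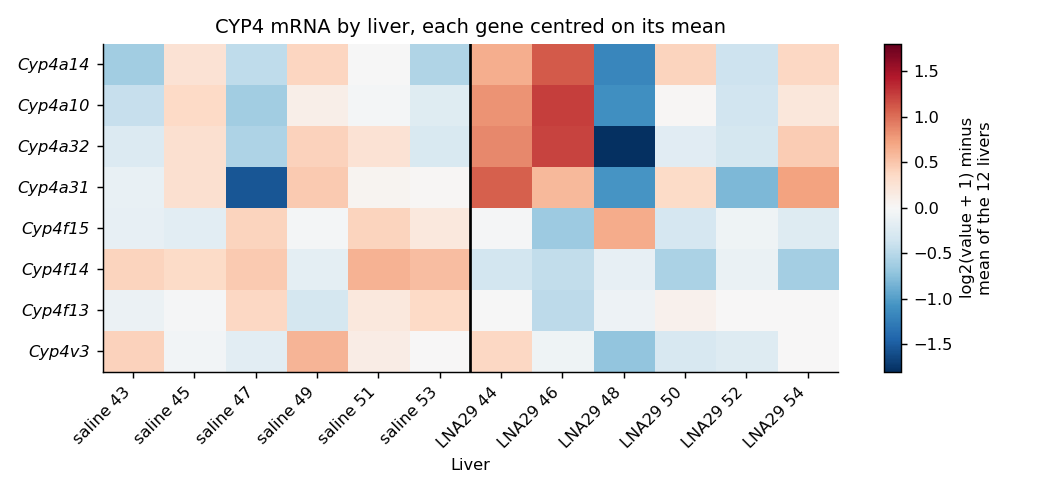
log2(value + 1) of 8 CYP4 genes (rows) in 12 livers (columns, saline left and LNA29 right of the line), each gene centred on its mean over the livers. LNA29 liver 46 is high and LNA29 liver 48 low in the Cyp4a rows, the Cyp4f15 row shows the reverse in these livers, and the Cyp4f14 row separates the groups apart from saline liver 49.

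The genes most alike in pattern were sought among 3115 genes with a mean of at least 1000, by the mean absolute difference of centred log2 values over the 12 livers. For Cyp4a10 they were Arg1, the arginase of the urea cycle (0.146), Elovl5, a fatty acid elongase (0.154), and Mat1a, which makes S-adenosylmethionine (0.163), where the median gene differed by 0.543. For Cyp4a14 they were Cyp4a10 (0.172), Arg1 (0.206) and Mat1a (0.221), and for Cyp4a32 Cyp4a10 (0.197), Cyp4a14 (0.238) and Mat1a (0.264). Cyp4a31 was nearest to Dcn (0.269), Ncoa4 (0.277) and 4933426M11Rik (0.280). Among the nearest to Cyp4f14 were Hrg (0.167) and Pxmp2, a peroxisomal membrane channel (0.17), with a median gene at 0.429. Cyp4f13 was nearest to Os9, Dctn2 and Plvap (0.0840 to 0.0928), Cyp4f15 to Camk2n1, Prodh2 and Asgr2 (0.103 to 0.117), and Cyp4v3 to Midn, Copa and Zdhhc5 (0.0836 to 0.0923). The 2 abundant Cyp4a genes and Cyp4a32 thus share Mat1a among their nearest 3, and the Cyp4f genes share none.

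A further 10 rows of the table carry Cyp4 symbols. Cyp4b1, Cyp4f16, Cyp4f17 and Cyp4f18 passed the filter. Cyp4f17 was the nearest to a difference, with means of 245 and 146 (log2 fold change -0.84, SE 0.38, exact permutation p = 0.0714). Cyp4b1 was at -0.07 and Cyp4f16 at 0.09 on the log2 scale, and Cyp4f18 had at most 3 reads in a liver. Cyp4x1, Cyp4f40 and Cyp4a29-ps had no reads in any liver, and Cyp4a30b-ps, Cyp4f41-ps and Cyp4f39 had reads in 2, 4 and 5 livers.

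The proteins that work with CYP4 enzymes were compared by role, on the log2 scale and in the same fit. Over all tested genes, 61.4% had a lower mean in LNA29 livers, and 56.1% once the livers were shifted to a common median. An exact permutation p under 0.05 was found for 8.5% of all tested genes, and groups that did not overlap for 0.985%. Counts in the lists below are to be read against these shares, and they were not tested. The list of 5 electron donors also holds Cyb5b, which is mitochondrial. Of these 5, 1 had an exact permutation p under 0.05 with a higher and 2 with a lower mean in LNA29 livers. None was called by limma after adjustment (median log2 fold change -0.19). Por, the oxidoreductase of microsomal P450, was at 0.27 (exact permutation p = 0.117) and Cyb5, the microsomal cytochrome b5, at -0.19 (exact permutation p = 0.349). Cyb5b, the cytochrome b5 of the mitochondrial outer membrane, had its 6 LNA29 values below all saline values (4820 ± 985 and 2943 ± 206, log2 fold change -0.69, exact permutation p = 0.00217, limma adjusted p = 0.0681). Cyb5r1, a cytochrome b5 reductase, had its 6 LNA29 values above all saline values (416 ± 94.9 and 720 ± 203, log2 fold change 0.78, exact permutation p = 0.00217, limma adjusted p = 0.223). For Cyb5r3 the log2 fold change was -0.48 (exact permutation p = 0.0260, and 0.0693 with the livers shifted to a common median). Of 9 dehydrogenases of the next steps of omega-oxidation, 8 had a lower mean (median -0.20), and Adh1, an alcohol dehydrogenase, was at -0.57 (exact permutation p = 0.0281, and 0.0693 after that shift), whereas Adh7, a low-level member with a mean under 100, was at 1.12 (exact permutation p = 0.0433).

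Of 18 genes of the peroxisomal breakdown of dicarboxylic acids, 15 had a lower mean in LNA29 livers (12 after the shift) and none was called by limma after adjustment (median -0.19). An exact permutation p under 0.05 was found for Abcd2, a transporter of fatty acyl-CoA into peroxisomes (-0.57, p = 0.0346), and Acot4, which hydrolyses dicarboxylic acyl-CoA (-0.51, p = 0.0238). Among 10 genes of PPARalpha and its partners, Rxra, which pairs with PPARalpha on DNA, was at -0.26 (exact permutation p = 0.0498, and 0.191 after the shift), and the hormone gene Fgf21 at 1.06 (exact permutation p = 0.0390). Of the 15 mitochondrial targets of PPARalpha, 11 had a lower mean (10 after the shift, median -0.09), among them Cpt2 of the carnitine shuttle (-0.32, groups not overlapping, exact permutation p = 0.00217, limma adjusted p = 0.457). Of 15 other targets, 10 had a lower mean (8 after the shift, median -0.13) and 1 was called: Acot3, a peroxisomal acyl-CoA thioesterase, fell from 3295 ± 763.1 to 1339 ± 406.6 (log2 fold change -1.32, limma adjusted p = 0.0224). Vnn1 at -1.01 (exact permutation p = 0.00433) and Gpd1 at -0.52 (exact permutation p = 0.00649) were also lower, with limma adjusted p of 0.0834 and 0.387.

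**Figure D5:**
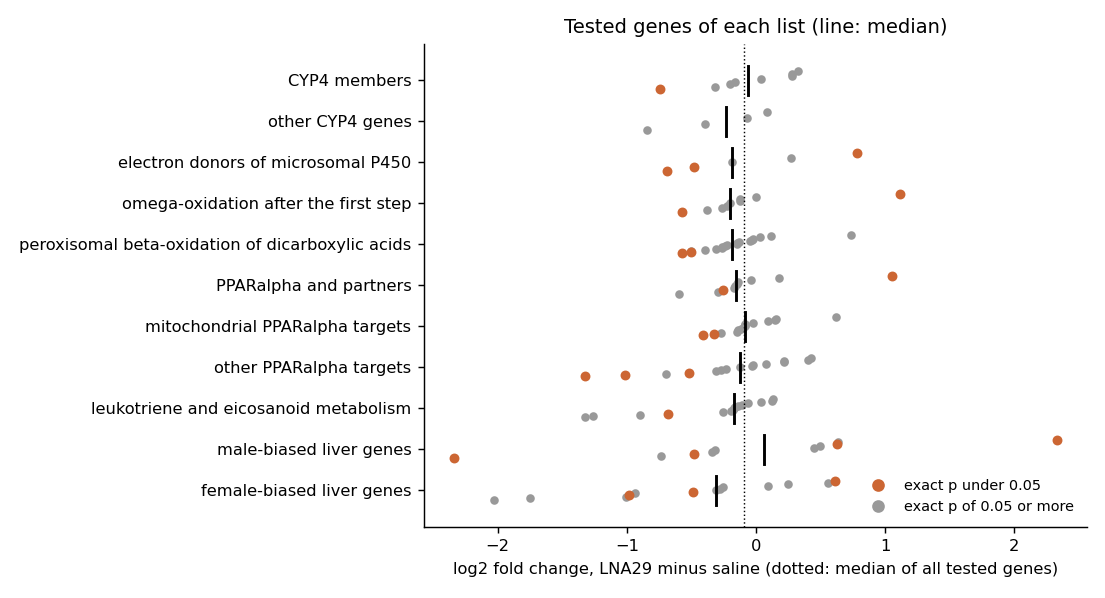
log2 fold change (LNA29 minus saline) of each tested gene of the CYP4 genes and of the lists that go with them (rows), without Cyp4a12a and Cyp4a12b. Orange points have an exact permutation p under 0.05, black lines are list medians, and the dotted line is the median of all tested genes at -0.09. The CYP4 genes lay on both sides, with Cyp4f14 the lowest of them.

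Of 15 genes of leukotriene and eicosanoid metabolism, 12 had a lower mean (median -0.17), with Cyp2c44, an arachidonic acid epoxygenase, at -0.68 (exact permutation p = 0.0173, limma adjusted p = 0.237). Since Cyp4a12a is male-predominant, other sex-biased liver genes were listed. Of 10 male-biased genes, 5 had a higher and 5 a lower mean, with Serpina1e at 2.33, Mup20 at 0.63 and Cyp2f2 at -0.48 (exact permutation p = 0.0108, 0.0130 and 0.0368). Gna14, a low-level male-biased gene with a mean under 100, was at -2.34 (exact permutation p = 0.0476). Of 13 female-biased genes, 4 had a higher and 9 a lower mean, with Cyp2c40 at 0.61, Cyp2b13 at -0.99 and Cyp2b9 at -0.49 (exact permutation p = 0.00217, 0.0130 and 0.0498). None of these sex-biased genes was called by limma after adjustment.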

How the data were processed

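Polyadenylated RNA of 12 mouse livers was sequenced with single reads of 100 bases. The authors mapped the reads with MapSplice2, quantified genes with RSEM (version not given in the sources used here; mm9 is the build in the submitters' processing notes) and deposited a signal per gene, scaled to an upper quartile of 1000. Of the values above 1, 92.2% to 93.9% were whole multiples of 1 read within 0.02 of a read. The deposited group means, the fold change (a score) and the p-value column were not used, nor were 3 unnamed columns.

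Values were tested as log2(value + 1), a scale on which the change of genes with few reads depends on the number added. The tests were limma 3.58.1 in R 4.3.3 (trend, Benjamini-Hochberg over all genes whose mean was 10 or more) and, for single genes, exact permutation over all 924 divisions of the livers. Correlations used 100000 permutations within groups. The 2 groups hold separate mice and were compared unpaired. The test was checked on simulated data made for this comparison (12529 genes), in which 24 of 100 genes changed by 1 and 97 of 100 changed by 2 on the log2 scale were called, with 1 false call among 122. The simulation gave all genes 1 fixed dispersion and changed only genes with a mean of at least 100. These rates do not carry over to genes as variable as Cyp4a10, whose log2 values had an SD of 0.83 in LNA29 livers. Lengths, 3′ UTRs and gene sequences came from GENCODE M21 on GRCm38, which is not the build of the files. Coding sequences were aligned with Biopython 1.88.

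Named genes were the 10 CYP4 genes, other Cyp4 rows, list genes with a limma adjusted p under 0.05, or with an exact p under 0.05 and a minimum mean of 100 (otherwise the 2 with the highest mean), and the 3 genes nearest to each CYP4 gene. Of the genes this rule names, 2 are not reported here. The CYP4 genes and lists were chosen with earlier results of these data known. Alternatives were pseudocounts of 0.1 and 10, no filter or a minimum mean of 100, a common median, trimmed-mean scaling, array weights, and leaving out each liver. The within-liver ratios and the overlap without saline liver 49 and the ranges without LNA29 liver 48 were added after the values were seen.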

Additional observations from a re-analysis of the deposited data

Results flagged for a closer look

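In 3 of 20 groups of 6 values of a CYP4 gene, 1 liver stood apart from the other 5 by Dixon's criterion, where chance gives about 1. Saline liver 47 had a log2 value of 12.17 for Cyp4a31, where the other saline livers had 13.58 to 14.18. LNA29 liver 46 had 10.70 for Cyp4f13, where the other LNA29 livers had 11.07 to 11.24. Saline liver 49 had 11.49 for Cyp4f14, against 12 to 12.28 in the remaining saline livers. Albumin took 35.7% of the reads in that liver.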

How the results depend on the processing

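Leaving out single livers gave 1 to 29 genes with a limma adjusted p under 0.05 over all genes, where all livers gave 20. It was 1 without saline liver 43 and without LNA29 liver 50 or 54. Of the CYP4 genes, 0 to 1 had an adjusted p under 0.05. A common median gave 10 genes with a limma adjusted p under 0.05 and array weights 58. Among the 8 CYP4 genes above the floor, Cyp4f14 kept an exact permutation p under 0.05 without any single liver (0.00217 to 0.00866). Cyp4v3 had one only without LNA29 liver 44 (exact permutation p = 0.0346). With all livers Cyp4f14 alone had one, beside 8.5% of all genes. With array weights 1 CYP4 gene, Cyp4f14, was called (limma adjusted p = 0.00468), as it was without saline liver 49 or LNA29 liver 48. The limma adjusted p of Cyp4f14 rose to 0.251 with a common median and to 0.204 with trimmed-mean scaling. Its log2 fold change stayed between -0.87 and -0.67 over the other alternatives and between -0.85 and -0.69 without single livers. With a mean of at least 100 required, Cyp4a12a and Cyp4a12b were not tested, and Cyp4f14 was the only CYP4 gene with an exact p under 0.05. The median of the male-biased list was 0.06 in the main setting and -0.04 to 0.30 without single livers. It moved to 0.45 with no filter and with a mean of at least 100. Cyp4a32 reversed without saline liver 43 (-0.01), 47 (-0.07) or 53 (-0.01) and without LNA29 liver 44 (-0.13), 46 (-0.20) or 54 (-0.05), within a range of -0.20 to 0.42. With a common median, the correlations were 0.75 for Cyp4f13 with Cyp4f14, 0.68 for Cyp4f13 with Cyp4f15 and 0.70 for Cyp4f14 with Cyp4f15, all with adjusted permutation p under 0.05 (0.0171, 0.0171 and 0.0143). Without single livers, r was 0.678 to 0.872 for Cyp4a14 with Cyp4a31, 0.292 to 0.766 for Cyp4f13 with Cyp4f15 and -0.0969 to 0.231 for Cyp4a12a with Cyp4a12b, and it turned negative without saline liver 49 (-0.0609), LNA29 liver 48 (-0.0195) or LNA29 liver 50 (-0.0969). The cause of these changes was not tested. No paired analysis was possible because the groups share no replicate number. The planned count tests were not run, since whole reads could not be recovered for every liver. For Cyp4a12a and Cyp4a12b, depth is the limit.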
